A study of Mus musculus with 15 samples.

Results

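Lpin2, which encodes lipin 2, was followed across 15 arrays of mouse type II alveolar epithelial (AT2) cells, the cells of the lung's air sacs that make surfactant. It is 1 of the 323 gene symbols with measured values in the deposited matrix, and a single row, that of the cDNA clone AK048657, measured it. The gene was chosen by its values on these same arrays, since an earlier analysis of them had found it lower than control in both resolving groups. Its levels against control are therefore given as a description, with no test. Only the comparison of the resolving groups with each other, which did not choose the gene, was tested.

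Each group had 5 arrays. Resolving AT2 cells with regulatory T cells (Tregs) depleted came from Foxp3DTR mice on the C57BL/6 background, whose Foxp3 locus carries the human diphtheria toxin receptor and GFP, so that diphtheria toxin kills their Tregs. Resolving AT2 cells with Tregs present came from Foxp3EGFP mice on the same background, whose Tregs carry GFP. Control AT2 cells came from mice labelled only as C57BL/6 background. All mice were 8 to 12 weeks old, and the resolving groups were taken 7 days after Escherichia coli lipopolysaccharide (LPS), given into the trachea at 3 mg/kg. Strain, LPS and toxin cannot be told apart from the groups, since each group was of its own strain, the labels do not say whether mice with Tregs present received diphtheria toxin, and the treatment text names LPS for all 3 strains, control included. A second line in the labels of all 15 arrays calls the profiled cells Tregs, and for 3 Treg-depleted arrays it names the spleen. The cells were sorted as CD326+ and MHCII+ after depletion of CD31+ and CD45+ cells. None of 9 AT2 marker genes checked (Sftpc, Abca3 and others) was among the measured rows, so the labelled cell type could not be checked against its markers.

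Lipins convert phosphatidate to diacylglycerol at the membrane of the endoplasmic reticulum. Diacylglycerol is the branch point from which cells make triacylglycerol, phosphatidylethanolamine and phosphatidylcholine, and a disaturated phosphatidylcholine is the main surface-active lipid of the surfactant that AT2 cells secrete. The mouse has the lipin genes Lpin1, Lpin2 and Lpin3. In humans, loss of LPIN2 causes Majeed syndrome, an inflammatory disease of bone and skin, and in mouse macrophages lipin 2 restrains inflammatory signalling.

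Another row named Lpin2, that of the RefSeq transcript NM_001164885, carried no measurement. Its values lay on the straight lines by row number that fill the matrix after its first 324 rows. The AK048657 clone is not among the 7 transcripts that the RefSeq table (GRCm38.p6) lists for the gene, and the part of the gene that its probes cover is not given in the sources used here. RefSeq gives 3 start windows for Lpin2 on chromosome 17, and the measured row does not tell which start was in use. The 30 bases just before each start are shown so that the starts can be told apart, on the plus strand with CpG dinucleotides in capitals.
Start 1, chr17:71183502-71183531: CGgCGggggCGgagctCGCGtcaCGtggcc
Start 2, chr17:71183948-71183977: aCGcCGgCGCGCGgtCGCGgtcatccccCG
Start 3, chr17:71204624-71204653: ttttttttttttaaagacctgtttgctttc
The 300-base windows around starts 1 and 2 held 37 and 54 CpG dinucleotides, and that around start 3 held 4, against a median of 7 over all 32851 windows of the RefSeq table. The first and second starts are thus CpG-rich and the third is not.

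Lpin2 was well above the floor of the arrays in all 15 samples. Values are on the log2 scale of RMA (robust multi-array average). They ranged from 7.33 to 9.33 for Lpin2, while the median of the measured rows of each array, which lies near the floor, was between 2.25 and 2.39. On the same scale Lpin2 lay between 4.94 and 7.05 above its own array's median.

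In resolving AT2 cells with Tregs depleted, Lpin2 had values of 8.24, 8.49, 8.16, 7.86 and 8.33 in replicates 1 to 5. With Tregs present it had 7.35, 8.33, 7.33, 8.33 and 8.19. In control AT2 cells it had 9.26, 9.23, 9.13, 9.33 and 8.96. All 10 resolving arrays were below all 5 controls, and the resolving groups overlapped each other. The order of the group means was control, Tregs depleted, Tregs present, and only control stood apart from its neighbour in that order.

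**Figure D1:**
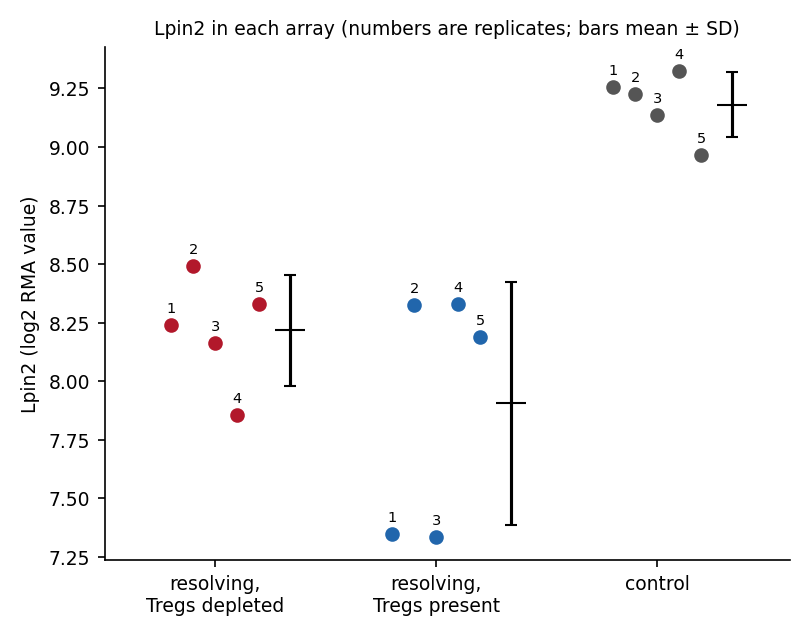
Lpin2 in each array on the log2 RMA scale, with the group on the horizontal axis, a point for each array numbered by replicate, and bars for the mean and SD of each group. The controls lie between 8.96 and 9.33, above all resolving arrays, and replicates 1 and 3 with Tregs present lie lowest, at 7.35 and 7.33.

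Lpin2 averaged 7.91 ± 0.52 with Tregs present and 9.18 ± 0.14 in control (SD, n = 5 each), a difference of -1.28 on the log2 scale, which is a level 2.42-fold below control. The highest array with Tregs present was 0.63 below the lowest control. Over all 173 genes tested, the median difference in this comparison was -0.07, and 4 genes had a more negative difference than Lpin2. A lower level without overlap of the groups was seen for 7.51% of the tested genes, and since this contrast chose the gene, nothing is read from that share.

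With Tregs depleted, Lpin2 averaged 8.22 ± 0.24, against the same control mean of 9.18 ± 0.14 (SD, n = 5 each). The difference was -0.97 on the log2 scale, a level 1.95-fold below control, and the highest Treg-depleted array was 0.47 below the lowest control. The median difference of the 173 tested genes was -0.04, and 7 genes had a more negative one than Lpin2. Here too 7.51% of tested genes were lower without overlap, and this contrast also chose the gene. Both comparisons used the same control arrays, so they are not separate observations of the control level. The arrays do not tell less Lpin2 RNA in each cell apart from a smaller share of cells that express it.

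**Figure D2:**
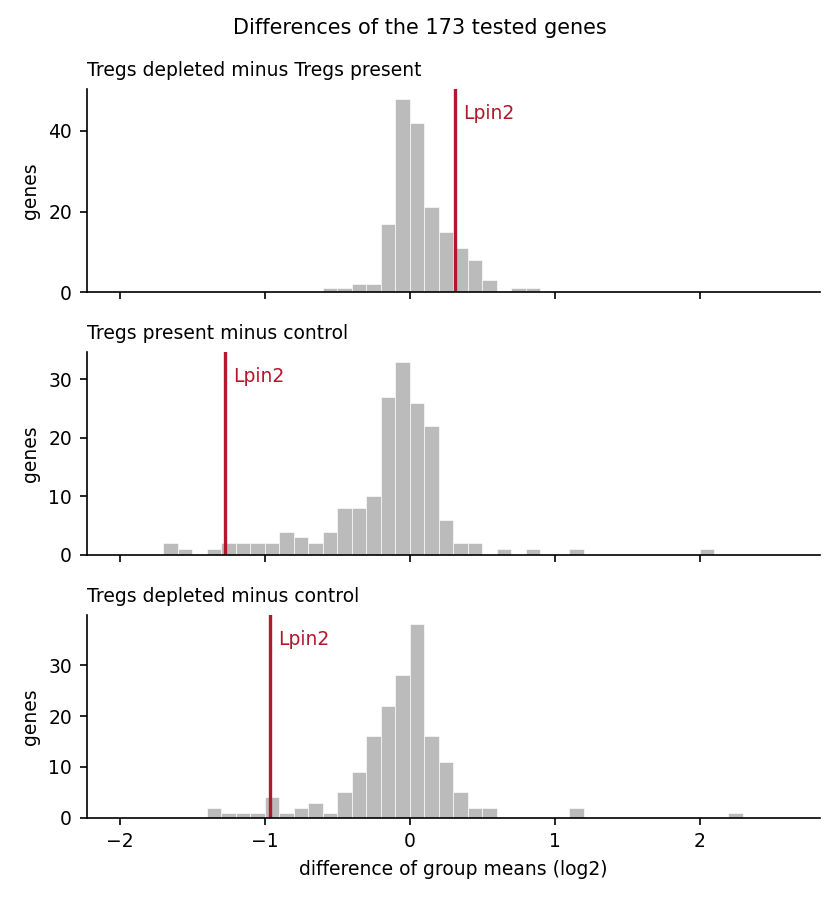
Differences of group means on the log2 scale (horizontal axis) for the 173 tested genes, as counts of genes per bin (vertical axis), in each of the 3 comparisons, with a red line at Lpin2. Lpin2 lies at 0.31 between the resolving groups and far down the left tail in both comparisons with control, at -1.28 with Tregs present and -0.97 with Tregs depleted.

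The comparison of the resolving groups sets Lpin2 with Tregs depleted against Lpin2 with Tregs present during recovery. These groups also differed in strain and possibly in toxin, so the comparison is not of Tregs alone. The group means were 8.22 ± 0.24 with Tregs depleted and 7.91 ± 0.52 when Tregs were present (SD, n = 5 each). The difference of 0.31 on the log2 scale (standard error 0.19), or 1.24-fold, had a 95% interval of -0.10 to 0.72 and did not pass the test (limma adjusted p = 0.697 over 173 genes). An exact two-sided permutation test over the 10 arrays gave p = 0.286, where 5 against 5 arrays can reach 0.00794. The interval includes no difference and also a level with Tregs depleted up to 0.72 log2 units higher, so the arrays do not show that Lpin2 was alike in the 2 groups. By limma 0 of the 173 tested genes (0%) passed in this comparison, and 14 had an unadjusted p under 0.05. An ordinary linear model without moderation also called 0, with 9 at an unadjusted p under 0.05.

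This difference rested largely on replicates 1 and 3 with Tregs present. These arrays lay 0.84 or more below the other 3 of their group, which spanned 0.14, and below the lowest Treg-depleted array. The other 3 arrays with Tregs present lay inside the range of the Treg-depleted arrays. The medians of the groups were 8.24 with Tregs depleted and 8.19 with Tregs present, a difference of 0.05. Without replicate 1 with Tregs present the difference in means was 0.17 (limma adjusted p = 0.941), and without replicate 3 it was also 0.17 (adjusted p = 1.00). Left out in turn, 2 of the higher arrays of that group moved it the other way. It was 0.42 without replicate 2 (95% interval 0.00032 to 0.83, limma adjusted p = 0.539) and 0.42 without replicate 4 (0.0093 to 0.82, adjusted p = 0.453), with intervals that just left out 0 before adjustment over genes. After quantile normalization of the measured genes it was 0.05 (limma adjusted p = 0.909). That scaling left only 2 distinct Lpin2 values in the Treg-depleted arrays and 3 with Tregs present, so this value reflects little but rank.

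Array-level values beside these were as follows. Replicates 1 and 3 with Tregs present had array medians of 2.37 and 2.39, against 2.26 to 2.31 in the other 3 arrays of that group. Among the Treg-depleted arrays the array medians were 2.38, 2.36, 2.30, 2.31 and 2.25 in replicates 1 to 5, beside Lpin2 values of 8.24, 8.49, 8.16, 7.86 and 8.33. With each array centred on its median, the difference between the resolving groups was 0.31, the same as without centring. All array medians lay near the floor, between 2.25 and 2.39, so centring on them could move the difference little. Whether an array-level difference bears on Lpin2 was not tested.

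**Figure D3:**
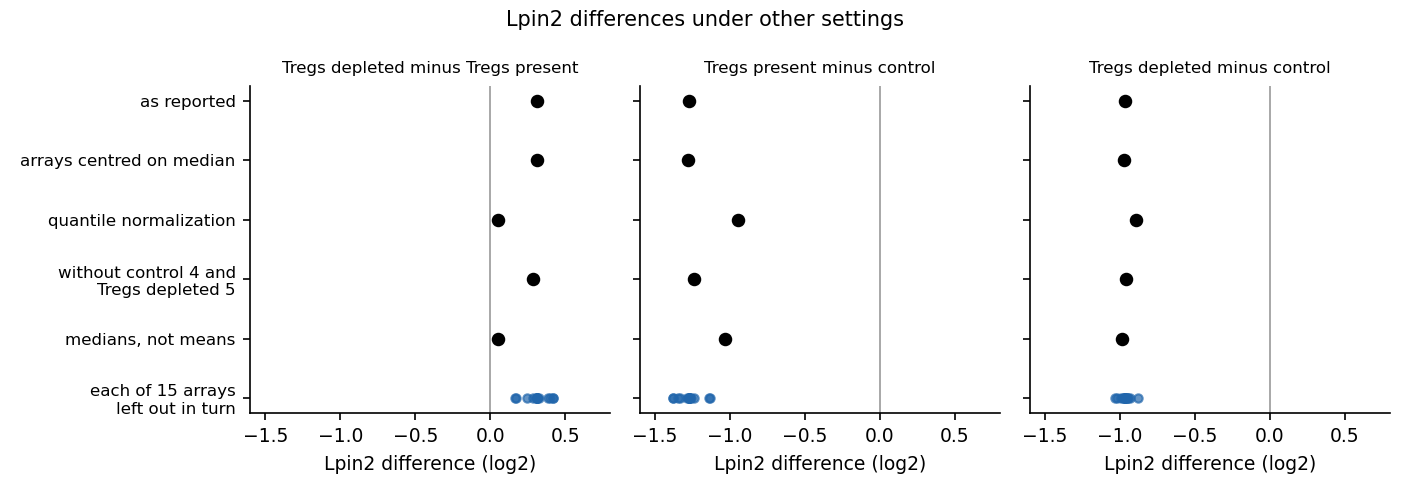
The Lpin2 difference on the log2 scale (horizontal axis) in each of the 3 comparisons, as reported and under other settings (vertical axis), with blue points for the 15 fits that each left out 1 array. The comparisons with control stay between -1.38 and -0.88, and the difference between the resolving groups stays between 0.05 and 0.42.

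Markers of other cells were nearly all outside the measured rows. Of 8 leukocyte markers only Lcp2, whose product links immune receptors to their signalling in T cells and myeloid cells, was measured, and of the endothelial, fibroblast, airway and AT1 markers none was. Lcp2 was at 7.07 in Treg-depleted replicate 5 and at 6.61 in control replicate 4, and between 2.75 and 4.33 in the other 13 arrays. Lpin2 was 8.33 in that Treg-depleted array and 9.33 in that control array, so both were in the upper part of their group. Without these arrays Lpin2 differed by -0.96 with Tregs depleted against control, by -1.24 with Tregs present against control and by 0.28 between the resolving groups. Trim30a, an interferon-induced gene, was also highest in Treg-depleted replicate 5, at 4.85. In replicates 1 and 3 with Tregs present, where Lpin2 was lowest, Lcp2 was 2.85 and 3.58 and Trim30a was 2.41 and 2.48. These values lay within the range of the other arrays over all groups.

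Other genes of the pathway could not be described. Of 54 genes listed for glycerolipid and phospholipid synthesis, which included Lpin1, Lpin3, the acyltransferases that make phosphatidate and the enzymes of phosphatidylcholine synthesis, Lpin2 was the only 1 measured. A further 46 were named only beside straight-line values and are not analysed here.

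Likeness of other genes to Lpin2 was the Pearson correlation with Lpin2 over the 15 arrays, among the 45 other tested genes with a mean over 4. These arrays were normalized together, and the Lpin2 values of the controls lie apart from the rest, so a gene that is also lower in both resolving groups gets a high value. The values are descriptions. The median correlation over the 45 genes was 0.54, and 37 were positive. The filter used the mean over all 15 arrays, so a gene could enter through high control values alone. The clone gene 4930466F19Rik did so, with means of 3.97 with Tregs depleted, 3.95 with Tregs present and 4.96 in control. Such genes favour positive values, so the median and the count of positive values are no neutral background. By the file's descriptions 34 of the 45 (75.6%) are predicted genes, clones or expressed segments, as are the 5 genes most like Lpin2.

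The clone gene D130062J21Rik came first, with r = 0.87 (Spearman's rho 0.84). It averaged 4.34 ± 0.34 with Tregs depleted, 3.80 ± 0.52 with Tregs present and 5.48 ± 0.41 in control. E230008O15Rik (r = 0.85, rho 0.81), Gm10590 (r = 0.84, rho 0.80), Gm19578 (r = 0.83, rho 0.77) and 4930466F19Rik (r = 0.82, rho 0.83) followed. All 5 had lower means than control in both resolving groups. Without control replicate 4 and replicate 3 with Tregs present, the arrays whose Lpin2 was farthest from the median, their r lay between 0.83 and 0.90. The gap between control and resolving arrays remained there, so these values say little about likeness within groups. Over deviations from group means, r was 0.46, 0.50, 0.02, 0.70 and 0.29 in the order named. These values pool the groups and do not show likeness within each of them. In control replicate 4, where Lpin2 was highest, E230008O15Rik (5.95), Gm10590 (6.10), Gm19578 (4.13) and 4930466F19Rik (4.53) were each at their lowest control value. D130062J21Rik was 5.13 there, with its lowest control value, 4.93, in replicate 2.

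Gm19578, a predicted gene, also followed Lpin2 among the resolving arrays, but not among the controls. Over the 10 resolving arrays alone it had r = 0.91 (rho 0.78), and over deviations from group means in all 15 arrays r = 0.70 (rho 0.56). Its values were 4.10, 4.33, 4.18, 3.87 and 4.04 in Treg-depleted replicates 1 to 5 and 3.07, 4.20, 3.63, 4.18 and 4.002 with Tregs present. In control replicates 1 to 5 they were 4.44, 4.78, 4.97, 4.13 and 4.27, lowest in replicate 4, where Lpin2 was highest. Its highest Treg-depleted array was replicate 2 and its lowest replicate 4, as for Lpin2, and it too was lowest in replicates 1 and 3 with Tregs present. Without those 2 arrays its r over the remaining resolving arrays was 0.85. For D130062J21Rik, r over the 10 resolving arrays was 0.72 and became -0.03 without the same 2 arrays, so its likeness among resolving arrays rested on them.

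Edv, an endogenous sequence related to a murine retrovirus, and Fnbp4, which encodes a formin-binding protein, came after Gm19578 in likeness of deviations from group means, with r = 0.64 (rho 0.64) and r = 0.59 (rho 0.55). Fnbp4 was 6.56 and 6.48 in replicates 1 and 3 with Tregs present, against 6.69 to 6.98 in the other 3 arrays of that group. Edv was 7.72 and 7.66 there, against 7.87 to 8.54. These genes were picked for their likeness to Lpin2, and within the group with Tregs present all 3 were lowest in replicates 1 and 3. Without these arrays, r over the remaining resolving arrays was 0.31 for Edv and -0.10 for Fnbp4. Over all 15 arrays Edv had r = 0.01 with Lpin2, as its mean was not lower than control in the resolving groups.

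At the other end stood Clu (r = -0.79, rho -0.74), D17H6S56E-5 (r = -0.79, rho -0.58) and Thoc7 (r = -0.76, rho -0.76). Clu encodes clusterin, a secreted chaperone, and Thoc7 a subunit of the THO complex, which couples transcription to mRNA export. Clu averaged 8.75 ± 0.22 with Tregs depleted, 8.78 ± 0.12 with Tregs present and 7.63 ± 0.21 in control (SD, n = 5 each), the opposite order of resolving and control to Lpin2. Among the 10 resolving arrays its r with Lpin2 was -0.05 (rho -0.33), so the negative value over all arrays is that of the distance between resolving and control arrays.

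**Figure D4:**
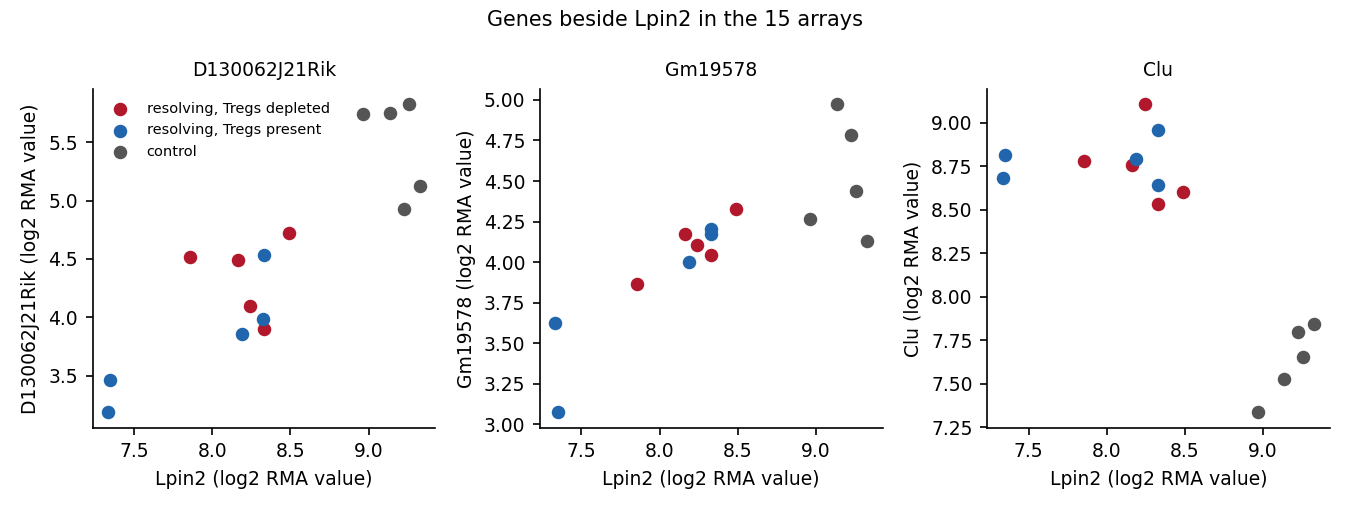
Lpin2 (horizontal axis) against D130062J21Rik, Gm19578 and Clu (vertical axes) in the 15 arrays, all as log2 RMA values, with a point for each array coloured by group. Gm19578 follows Lpin2 among the resolving arrays (r = 0.91 over 10 arrays), while Clu separates control from resolving arrays and has r = -0.05 within the resolving arrays.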

How the data were processed

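The authors deposited log2 RMA values from Affymetrix Mouse Gene 2.1 ST arrays. Tools listed in the submitters' processing notes are RMA, Partek and Affymetrix Expression Console, and per the labels' protocols each array received cDNA from 225 ng of total RNA. Neither versions nor a genome build is given in the sources used here. The values were deposited in 2 tables, which differed by at most 5e-09. Only the first 324 of 31351 rows vary like measurements. The other 31027 lie on 1 straight line by row number in each column, to within 4.4e-13, and were left out of every step. Gene names were used as they stand beside the values, a pairing that could not be checked.

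Each of 323 symbols was represented by its row of highest mean, and symbols above the array median in at least 5 of 15 arrays were tested (173). Group means over all 15 arrays were compared by limma 3.58.1 in R 4.3.3 (a linear model moderated with trend = TRUE), with Benjamini-Hochberg adjustment over all tested symbols and a threshold of 0.05. The fit was tested on simulated data. Nothing in the labels ties arrays to separate mice, and p-values then cover only the spread between these samples, which may be technical. For arrays, their number limits the precision. The gene, the lists and the tests were chosen with earlier results of these data known. Named genes were the 5 symbols with the highest and the 3 with the lowest r to Lpin2, the 3 with the highest r of deviations from group means (mean over 4), measured list members, and Lcp2 and Trim30a. Start sequences are RefSeq's (GRCm38.p6), matched by symbol. Alternatives were quantile normalization, centring, the second table, other filters and tests, left-out arrays and a replicate block.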

Additional observations from a re-analysis of the deposited data

Results flagged for a closer look

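Among 39 sets of 5 arrays (13 genes in 3 groups), 3 held 1 array that lay far from the rest. None of them was a set of Lpin2 values. A rate of about 1 in 20 would give 1.95, but the count cannot be set against it. Lcp2 and Trim30a were included because earlier results of these data had shown them high in single arrays. The remaining genes other than Lpin2 were picked by their correlation with Lpin2 over the same arrays. Lcp2 was 7.07 in Treg-depleted replicate 5, against 2.75 to 3.64 in the other arrays of that group. Lcp2 was also 6.61 in control replicate 4, against 2.78 to 3.81. Gm10590, one of the genes most like Lpin2, was 6.10 in control replicate 4, against 6.69 to 6.91.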

How the results depend on the processing

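Lpin2 stayed below control in both comparisons under all 21 alternatives of each, and the difference between the resolving groups stayed positive and missed the threshold, where tested, in all 27. Many of these alternatives could not move the difference itself, so the counts are not counts of separate checks of its sign. The second table, the other filters and tests, the replicate block and leaving out an array of the group not compared all returned the same difference. Leaving out 1 array at a time gave -1.38 to -1.13 with Tregs present against control, -1.03 to -0.88 with Tregs depleted against control, and 0.17 to 0.42 between the resolving groups (limma adjusted p between 0.453 and 1.00). The other alternatives gave -1.28 to -0.95, -0.98 to -0.89 and 0.05 to 0.31, with adjusted p between 0.315 and 0.909. After quantile normalization the differences with control were -0.95 with Tregs present and -0.89 with Tregs depleted. On so few genes this scaling keeps little but rank, and it gave all 5 controls 1 and the same Lpin2 value, 8.88. In a fit with a replicate block the difference between the resolving groups was 0.31 (adjusted p = 0.744). Deviations of same-numbered arrays of different groups correlated at a median of 0.0033, and 3 of 15 pairs were over 0.1. Among the 60 other pairs of arrays from different groups the median was 0.024, and 17 were over 0.1. Same-numbered arrays were thus not more alike than others by this measure, which cannot show that the arrays were unpaired. Of the 5 genes most like Lpin2, 3 were still among the first 5 after quantile normalization and 4 or 5 in the other 4 alternatives. The cause was not tested.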
